A study of Capra hircus with 9 samples.

Results

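The imprinted DLK1-DIO3 region carries one of the longest runs of miRNA genes known in mammals, and its miRNAs were followed here in the submandibular gland, a major salivary gland, of the Lubo goat. The members were taken by name: every entry of the count table whose number after miR- is one of 46 numbers assigned to the region. Of the 2189 entries, 66 with goat names (prefix chi-) and 80 named after other species were members, where the ending -x stands for the 5p arm of the hairpin and -y for the 3p arm. Of the 46 numbers, 44 had an entry. Small RNA was counted in 9 libraries, 1 per animal, from 3 goats aged 1 month, 3 aged 12 months and 3 aged 24 months. The animals of all 3 ages were healthy females kept alike, and age was the only labelled difference. Libraries are called by age and by the number in their titles, which are 1, 2 and 3 at 1 month, 3, 4 and 5 at 12 months, then 2, 3 and 5 at 24 months.

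In mammals the region is imprinted: DLK1, RTL1 and DIO3 are read from the paternal chromosome, and the noncoding transcripts MEG3 and MEG8, an RNA antisense to RTL1 and the region's miRNAs from the maternal one. The miRNAs are cut from long maternal transcripts, so many of them can share a source, and they are known for high levels in placenta, embryo and brain and for a fall in many tissues after birth. A miRNA recognises targets mostly through its seed, bases 2 to 8. In the goat gene table of RefSeq (assembly ARS1.2), 45 miRNA genes lie between DLK1 and DIO3 on chromosome 21, 42 of them under the numbers used here and none of those genes elsewhere. All 66 goat-named members matched a gene of this stretch. From the DLK1 end, the order runs through a MEG3-side group (miR-493 and miR-665), an RTL1-antisense group (miR-433, miR-127, miR-432 and miR-136) and the long cluster that starts at miR-379 and ends at miR-656. The member miR-370-y belongs to a hairpin that lies within MEG8 in other mammals.

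The mature sequences below come from the deposited table, are written 5′ to 3′ with the seed in capitals, and are the ones the results turn on. They are the most abundant arm and its opposite arm, the leading RTL1-antisense miRNAs and the one miRNA past the test. After them stand chi-miR-544-5p, chi-miR-412-5p and chi-miR-382-3p, which passed without 1 library, and chi-miR-381. Among members with a mean of at least 10 CPM (scaled counts, defined below), chi-miR-127-3p and chi-miR-381 had the widest spread between goats.
chi-miR-411a-5p: aTAGTAGAccgtatagcgtac
chi-miR-411a-3p: tATGTAACacggtccactaac
chi-miR-136-3p: aTCATCGTctcaaatgagtct
chi-miR-127-3p: tCGGATCCgtctgagcttgg
chi-miR-127-5p: gAAGCTCAgagggctctgattc
chi-miR-656: aATATTATacagtcaacctct
chi-miR-544-5p: tCTTGTTAaaaggcagattct
chi-miR-412-5p: tGGTCGACcagttggaaagtaat
chi-miR-382-3p: aATCATTCacggacaacactt
chi-miR-381: tATACAAGggcaagctctctgt

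Seeds were varied within the region, with 103 distinct seeds over all members. By first base, 73 members began with A, 40 with T, 22 with G and 11 with C. Among goat-named members of different number, 3 seeds were shared, and no entry outside the region carried any of them. The pairs are shown because the shared seed is the part of a miRNA that recognises targets.
chi-miR-411a-3p: tATGTAACacggtccactaac
chi-miR-379-3p: tATGTAACatggtccactaac
chi-miR-487a-3p: aATCATACagggacatccagtt
chi-miR-154a-3p: aATCATACacggttcacctact
chi-miR-412-5p: tGGTCGACcagttggaaagtaat
chi-miR-411b-5p: tGGTCGACcataaaacgtacgt
Within the ATGTAAC pair, the 3p arms of neighbouring hairpins, chi-miR-411a-3p was the more abundant at a mean of 118 CPM (counts scaled to a common library size by TMM) over the 9 libraries, against 23.4 for chi-miR-379-3p. The ATCATAC pair stood at 9.01 CPM for chi-miR-487a-3p and 4.66 CPM for chi-miR-154a-3p. The GGTCGAC pair was scarce, at 3.54 CPM for chi-miR-412-5p and 0.917 CPM for chi-miR-411b-5p.

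The region was a small part of the gland's miRNA at every age. Its members took 0.533%, 0.148% and 0.567% of all counts in 1-month libraries 1, 2 and 3. The shares were 0.530%, 0.415% and 0.439% in 12-month libraries 3, 4 and 5, and 0.527%, 0.429% and 0.375% in 24-month libraries 2, 3 and 5. The ages overlapped, with means of 0.416% ± 0.232 (SD), 0.461% ± 0.0610 and 0.444% ± 0.0773 (n = 3 goats each), and the 1-month mean without library 2 was 0.550%. The Wilson 95% interval of the share in 1-month library 2, 0.146% to 0.150%, covers counting error only and lies far below the next lowest library.

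Library 2 of the 1-month goats stood apart in the whole table as well as in the region, so results for the 1-month group are also given without it. It held the lowest level of 62 of the 84 tested members (73.8%), against 287 of all 937 tested entries (30.6%), and the highest level of 0 members, against 318 entries (33.9%). Relative to each member's own mean, the median member there lay at -1.04 on the log2 scale, while the other 8 libraries lay between -0.32 and 0.32. Mesenchymal marker miRNAs (miR-143, miR-145, miR-199 and miR-214; 20 entries, 19 of them tested) were also lowest in library 2. They took 1.66% of its counts, 10.7% and 13.6% of 1-month libraries 1 and 3, and 6.51% to 9.04% of the older ones. The endothelial marker miR-126 was lowest in library 2 too, at 0.441% against 0.693% to 1.45% elsewhere. Epithelial markers took 0.875% there against 3.97% to 11.9% elsewhere, and gland markers (miR-148, miR-375 and others) 1.41% against 6.50% to 17.9%. Neural and leukocyte markers were at their highest there, at 3.48% and 12.7%, against at most 0.723% and 5.78% elsewhere. These lists also differed with age: leukocyte markers took 7.39% ± 4.68, 0.652% ± 0.0551 and 0.527% ± 0.0783 of counts at 1, 12 and 24 months. Of their 16 tested entries, 12 were called lower at 12 months and 14 at 24 months than at 1 month. Over all entries, 13.2% and 17.5% were called lower. Neural markers (miR-128, miR-219 and others) took 1.54% ± 1.69, 0.0477% ± 0.00810 and 0.0360% ± 0.00991, with 3 and 4 of 13 tested entries called lower. Their median log2 fold changes were -0.98 and -1.27, much less than the change of the summed share. That share thus follows its abundant entries and not the list as a whole. Epithelial markers took 3.55% ± 2.497, 10.9% ± 0.820 and 11.5% ± 0.639 (SD, n = 3 each). Of their 22 tested entries, 5 and 9 were called higher, against 5.98% and 8.75% of all entries. Gland markers took 5.49% ± 3.68, 15.8% ± 1.40 and 17.4% ± 0.513. Of their 11 tested entries, 3 and 4 were called higher, and 1 and 0 lower. The median log2 fold changes of these gland entries were only 0.25 and 0.585, so the summed share follows its abundant entries. Every comparison of the region with 1 month runs beside these lists. The part of these cell types in the low level of the region in library 2, or in its differences with age, was not tested. In whole glands, fewer cells of a type and less RNA per cell cannot be told apart.

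Levels inside the region were steeply graded. The 12 most abundant members took 76.0% to 83.8% of the region's counts in each library, 38 tested members had a mean of at least 10 CPM, and 8 reached 100 CPM. Ranked among all entries of the table by mean level, these 12 stood between places 84 and 273. The long cluster held 73.6% to 80.0% of the region's counts and the RTL1-antisense group 15.5% to 22.7%.

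**Figure D1:**
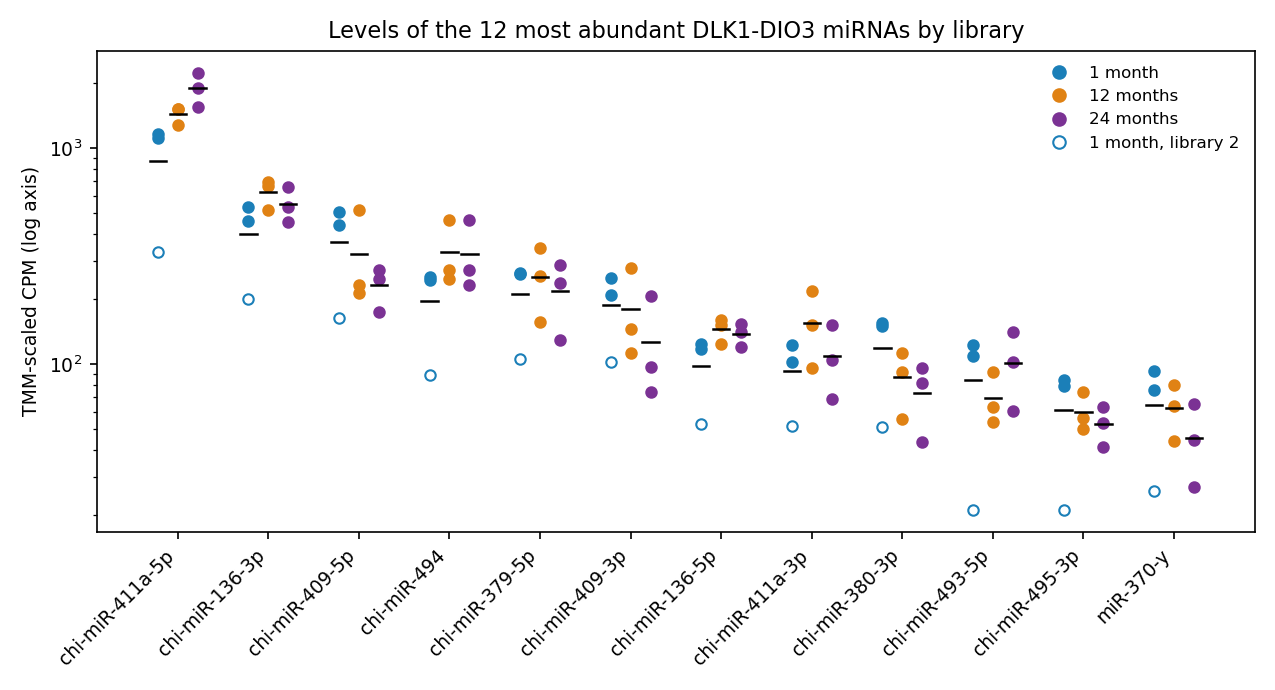
Levels of the 12 most abundant region miRNAs in TMM-scaled CPM on a log axis; each point is 1 library, coloured by age, the open point is 1-month library 2 and the bar is the mean of the 3 goats of an age. The open point is the lowest 1-month value of all 12 miRNAs, and chi-miR-411a-5p lies highest at every age.

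The leading member was chi-miR-411a-5p, the 5p arm of a hairpin near the start of the long cluster. Its level was 1158, 330.2 and 1110 CPM in 1-month libraries 1, 2 and 3. It was 1506, 1282 and 1515 CPM in 12-month libraries 3, 4 and 5, and 1901, 2231 and 1539 CPM in 24-month libraries 2, 3 and 5. In TMM-scaled CPM the 3 ages did not overlap, with means of 866 ± 465, 1434 ± 132 and 1890 ± 346 CPM (SD, n = 3 each). As a percent of all counts, without TMM scaling, the 3 ages did overlap. These shares were 0.137%, 0.0313% and 0.135% at 1 month, 0.141%, 0.135% and 0.140% at 12 months, then 0.182%, 0.211% and 0.137% at 24 months. The difference did not pass the test, with a log2 fold change of 1.13 (SE 0.44) for 24 months against 1 month and an adjusted p of 0.0773 (edgeR quasi-likelihood test, Benjamini-Hochberg over all 937 entries tested). Without 1-month library 2 the same comparison gave 0.71 (SE 0.22) and an adjusted p of 0.0403, a smaller difference that passed.

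The share of the region taken by chi-miR-411a-5p needs no scaling between libraries. It was 25.7%, 21.1% and 23.9% at 1 month, 26.6%, 32.5% and 31.8% at 12 months, then 34.6%, 49.1% and 36.4% at 24 months. The ages did not overlap, and 24-month library 3 was the highest. chi-miR-409-5p, from a hairpin near the far end of the cluster, went the other way, at 9.74%, 10.4% and 10.8% at 1 month, 9.16%, 5.89% and 4.47% at 12 months, then 4.94%, 3.84% and 5.83% at 24 months. chi-miR-380-3p stood at 3.30%, 3.27% and 3.32% of the region at 1 month, between 1.42% and 1.98% at 12 months, then between 0.955% and 1.94% at 24 months. Both lay higher in every 1-month library, the library 2 value included, than at either later age. These shares were singled out after their values were seen and carry no test. Since shares within the region sum to a whole, a larger share of chi-miR-411a-5p lowers the others.

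**Figure D2:**
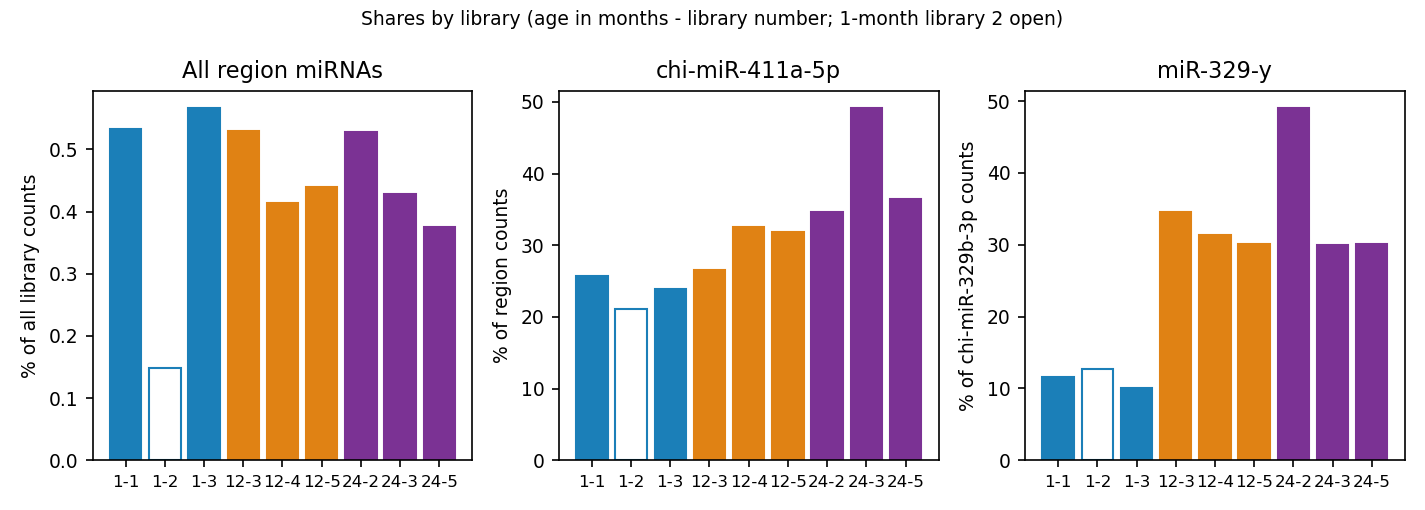
Bars by library, labelled by age in months and library number, with 1-month library 2 drawn open: the region's percent of all counts, chi-miR-411a-5p as a percent of the region's counts, and miR-329-y as a percent of chi-miR-329b-3p. The region's share is lowest at 0.148% in the open bar, while the other 2 panels place that library with its age.

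The next members in abundance overlapped between ages. chi-miR-136-3p, of the RTL1-antisense group, gave 460.2, 201 and 534 CPM at 1 month, 667.8, 517 and 699 CPM at 12 months, and 658, 530.1 and 455 CPM at 24 months. Its opposite arm chi-miR-136-5p gave 117, 52.7 and 124.2 CPM, then 159.9, 123.5 and 152 CPM, then 139.9, 152 and 119.9 CPM. Both arms overlapped between all 3 ages, and neither passed any comparison. chi-miR-494 ran from 88.5 to 464 CPM, chi-miR-379-5p from 105 to 345 CPM and chi-miR-409-3p from 74.1 to 279 CPM over the 9 libraries. Of these, chi-miR-409-3p was lowest in 24-month library 3 and the others in 1-month library 2. chi-miR-411a-3p ran from 51.6 to 216.7 CPM, chi-miR-380-3p from 43.3 to 154.6 CPM, chi-miR-493-5p from 21.1 to 140.2 CPM, chi-miR-495-3p from 21.2 to 83.8 CPM and miR-370-y from 25.7 to 92.4 CPM.

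Few members passed a test for age at the depth and spread of these 9 libraries. Between 12 months and 1 month 0 of 84 tested members passed, against 19.2% of all tested entries (180 of 937, with 5.98% higher and 13.2% lower), and 6 members had an unadjusted p under 0.05, against 39.9% of entries. Between 24 and 12 months 0 members passed (background 0%), with 1 member at an unadjusted p under 0.05 against 4.27% of entries. Between 24 months and 1 month 1 member passed, a rise, against 26.3% of entries called in either direction, 8.75% higher and 17.5% lower, and 9 members had an unadjusted p under 0.05 against 42.6%. In a test of any difference between the 3 ages 0 members passed, against 20.5% of entries. DESeq2 called 4, 0 and 6 members in the comparisons of 12 against 1, 24 against 12 and 24 against 1 months, where it called 30.4%, 0% and 38.2% of entries. Limma voom called 3, 0 and 1 members, against 24.3%, 0% and 26.5% of entries. The direction of the calls for 24 months against 1 month also depended on the setting: the 1 member called on library size alone, chi-miR-412-5p, and the 2 called with no filter on low counts, chi-miR-412-5p and chi-miR-433, were lower, and chi-miR-656 was not called there. The remaining 62 members were too scarce to test, each with at most 80 counts in all.

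The counts of members whose ages stood clear of each other turned on 1-month library 2. Between 12 months and 1 month 14 of 84 members did not overlap, all 14 higher at 12 months, against 48.5% of entries, 26.3% higher and 22.2% lower. Between 24 and 12 months 8 members did not overlap, 3 higher and 5 lower, against 9.82% of entries, 6.08% higher and 3.74% lower. Between 24 months and 1 month 15 members did not overlap, 13 higher and 2 lower, against 47.2% of entries, 21.3% higher and 25.8% lower. Without 1-month library 2, a reading chosen after the data were seen, 32 members did not overlap between 12 months and 1 month, 14 higher and 18 lower, against 61% of entries, 31.6% higher and 29.5% lower. Between 24 months and 1 month there were then 42, 13 higher and 29 lower, against 61.4% of entries, 27.3% higher and 34% lower. The members that lay higher at the later age were as many with as without that library, and nearly all that lay lower came in when it was left out. This follows largely from the choice of library. Library 2 was the lowest library for 62 of the 84 members and the highest for 0. Leaving out so low a library can readily add lower members but hardly higher ones, so the contrast carries no evidence on age. With all 9 libraries, 11 of 84 members differed by at least 2-fold between 12 months and 1 month, against 469 of 937 entries, and 19 against 487 between 24 months and 1 month.

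The median fitted log2 fold change of the members was 0.23 for 12 months against 1 month, -0.19 for 24 against 12 months and 0.06 for 24 months against 1 month. The medians of all entries were -0.02, -0.03 and -0.06. The sign of these small medians turned with the scaling and the libraries, so they are read against all entries. For both comparisons with 1 month the members' median lay above that of all entries under every alternative run, except without 1-month library 2. There it lay below, at -0.08 against 0.07 for 12 months and at -0.29 against -0.07 for 24 months. By position, the medians for 12 months against 1 month were 0.10 for 6 MEG3-side members, 0.20 for 11 RTL1-antisense members, -0.05 for miR-370-y and 0.34 for 66 members of the long cluster. For 24 months against 1 month they were 0.05, -0.47, -0.51 and 0.15 in the same order. Comparisons with 1 month share those 3 goats and are not independent of each other.

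**Figure D3:**
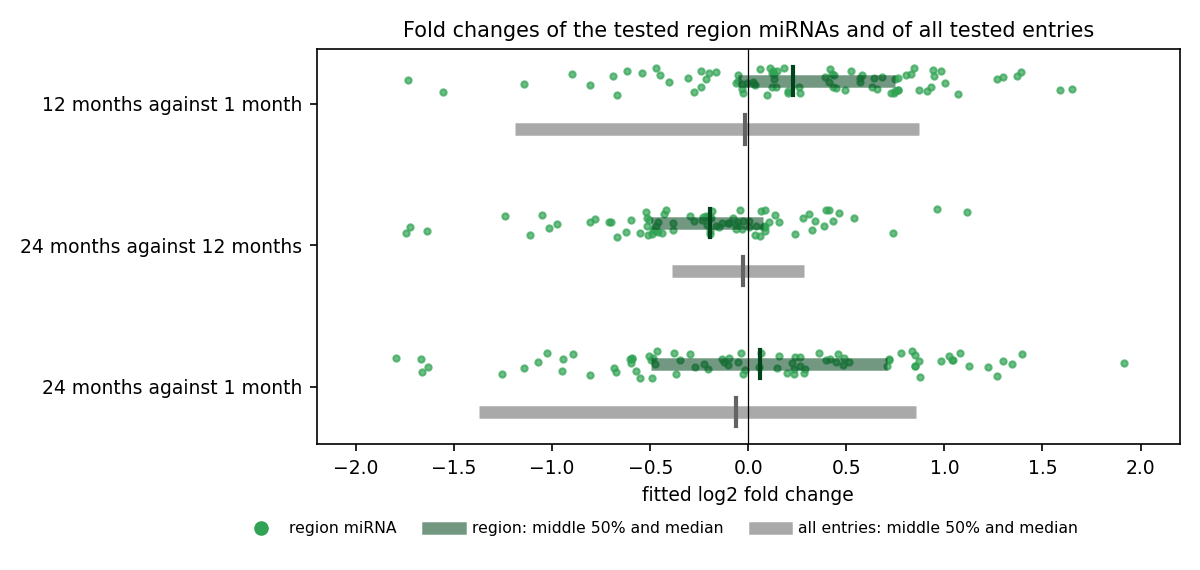
Fitted log2 fold changes of the 84 tested region miRNAs (points) in the 3 age comparisons, with bars for the middle 50% and lines for the median of the region (green) and of all 937 tested entries (grey). The region's bars are narrower than those of all entries in both comparisons with 1 month, and its medians lie at 0.23, -0.19 and 0.06.

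The MEG3-side group was small. chi-miR-493-5p, its leading member, gave 123, 21.1 and 109 CPM at 1 month, 91.7, 53.6 and 63.1 CPM at 12 months and 60.5, 102 and 140.2 CPM at 24 months. miR-665-x, the 5p arm of the miR-665 hairpin, had the smallest p of all members between 24 and 12 months, with 5.15, 2.13 and 1.62 CPM at 12 months and 1.16, 1.14 and 0.345 CPM at 24 months. Those ages did not overlap, but its log2 fold change of -1.73 (SE 0.67) had an adjusted p of 0.998. No member of this group passed in any comparison.

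In the RTL1-antisense group, miR-127 and miR-136 are known for pairing with the RTL1 transcript of the opposite strand. chi-miR-433 gave 8.76, 1.83 and 11.9 CPM at 1 month, 3.22, 2.56 and 4.4 CPM at 12 months and 4.34, 1.02 and 1.84 CPM at 24 months. Its log2 fold change for 24 months against 1 month was -1.63 (SE 0.72, adjusted p = 0.110 in edgeR), and -2.12 (SE 0.56, adjusted p = 0.0227) without 1-month library 2. 1-month libraries 1 and 3 were thus high and library 2 lay among the older goats. chi-miR-432-5p gave 44.2, 9.71 and 41.2 CPM at 1 month, 26.9, 14.5 and 18.5 CPM at 12 months and 24.0, 12.7 and 26.2 CPM at 24 months. Its adjusted p was 0.384 for 12 months and 0.451 for 24 months against 1 month. chi-miR-432-3p was near the limit of detection, between 0 and 1.80 CPM.

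chi-miR-127-3p spread more between goats than any other member with a mean of at least 10 CPM, with a highest over lowest library of 20.7-fold. The median of that ratio was 3.82 over 38 members and 4.91 over 473 entries at this level that had counts in every library. Its level was 41.8, 6.05 and 68.3 CPM at 1 month, 76.5, 8.0 and 125 CPM at 12 months and 46.8, 6.03 and 9.56 CPM at 24 months. One goat at 1 month, 1 at 12 months and 2 at 24 months were low, so the split ran through every age. The longer form miR-127-y, which adds 2 bases at the 3′ end, had the same pattern, at 14.7, 3.18 and 23.8 CPM, then 23.2, 4.59 and 37.4 CPM, then 18.4, 2.96 and 6.10 CPM.
chi-miR-127-3p: tCGGATCCgtctgagcttgg
miR-127-y: tCGGATCCgtctgagcttggca
The opposite arm did not follow it. chi-miR-127-5p gave 41.7, 13.1 and 38.6 CPM at 1 month, 33.5, 32.5 and 37.1 CPM at 12 months and 31.3, 34.3 and 24.4 CPM at 24 months, and only 1-month library 2 was low. The log2 ratio of 5p to 3p counts ran over 4.26 units, from -1.75 in 12-month library 5 to 2.51 in 24-month library 3. The ratio of the neighbouring miR-136 hairpin ran over 0.43 units. chi-miR-127-3p had log2 fold changes of 0.85 (SE 1.06, adjusted p = 0.566) for 12 months and -0.90 (SE 1.06, adjusted p = 0.560) for 24 months against 1 month.

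The one member past the test was chi-miR-656, at the DIO3 end of the long cluster. Its level was 3.69, 2.94 and 4.10 CPM at 1 month, 12.1, 7.15 and 8.98 CPM at 12 months and 13.1, 9.89 and 5.30 CPM at 24 months. Every older goat lay above every 1-month goat. The log2 fold change was 1.40 (SE 0.45, adjusted p = 0.0431) for 24 months against 1 month, and 1.39 (SE 0.45, adjusted p = 0.0540), short of the threshold, for 12 months against 1 month. The call was narrow: the adjusted p was 0.101 on library size alone, 0.0517 with limma voom and 0.0175 with DESeq2, and it lay between 0.0569 and 0.217 when any 1 of the 9 libraries was left out. Without 1-month library 2 it was 0.0622, at a log2 fold change of 1.25 (SE 0.44), and for 12 months 0.0697, at 1.24 (SE 0.44).

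A set of long-cluster miRNAs lay low at 1 month without passing. chi-miR-544-5p gave 37.2, 10.8 and 37.4 CPM at 1 month, 51.6, 56.5 and 63.3 CPM at 12 months and 85.8, 74.5 and 56.6 CPM at 24 months, with no overlap between 1 month and either later age. Its log2 fold change for 24 months against 1 month was 1.34 (SE 0.47, adjusted p = 0.0528), and 0.93 (SE 0.27, adjusted p = 0.0332) without 1-month library 2. chi-miR-758 gave 5.40, 1.83 and 5.08 CPM, then 8.63, 10.7 and 12.6 CPM, then 13.0, 9.10 and 7.60 CPM, again clear of 1 month at both ages. Its log2 fold changes were 1.37 (SE 0.48, adjusted p = 0.0629) and 1.27 (SE 0.48, adjusted p = 0.0684) for 12 and 24 months against 1 month, and 0.99 (adjusted p = 0.0697) and 0.89 (adjusted p = 0.0853) without library 2. The low entry miR-758-y, which differs from it by T1G and C22T (chi-miR-758 first, positions from the 5′ end), had 1.92 (SE 0.73, adjusted p = 0.0684) for 24 months against 1 month. chi-miR-323a-3p gave 11.2, 3.58 and 12.8 CPM, then 23.4, 16.2 and 28.5 CPM, then 25.4, 15.1 and 15.8 CPM, with 1.30 (SE 0.51, adjusted p = 0.0865) for 12 months against 1 month and 0.89 (adjusted p = 0.103) without library 2.

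Other long-cluster miRNAs lay higher in 1-month libraries 1 and 3 than in the older goats. chi-miR-412-5p gave 7.62, 3.02 and 9.39 CPM at 1 month, 3.09, 1.60 and 1.35 CPM at 12 months and 1.74, 0.910 and 3.11 CPM at 24 months. Its log2 fold changes were -1.73 (SE 0.64, adjusted p = 0.0698) and -1.80 (SE 0.64, adjusted p = 0.0541) for 12 and 24 months against 1 month. Without 1-month library 2 both passed, at -2.11 (SE 0.55, adjusted p = 0.0241) and -2.17 (SE 0.55, adjusted p = 0.0204). chi-miR-382-3p, named here after its values were seen, gave 40.7, 9.39 and 38.5 CPM at 1 month, 20.7, 13.7 and 16.2 CPM at 12 months and 20.3, 11.6 and 14.1 CPM at 24 months. Here library 2 was the lowest of all 9 while its 2 age mates were the highest.

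Without 1-month library 2, the count of members past the test went from 0 to 4 of 89 for 12 months against 1 month, against 22.5% of entries called. All 4 were lower: chi-miR-382-3p at -1.26 (SE 0.32, adjusted p = 0.0216), chi-miR-382-5p at -1.11 (SE 0.33, adjusted p = 0.0385), chi-miR-412-5p and miR-432-x at -1.40 (SE 0.36, adjusted p = 0.0212). The miR-382 entries are the arms of 1 hairpin. Over their shared length, miR-432-x differs from chi-miR-432-5p by T21A and G22A (chi-miR-432-5p first, positions from the 5′ end). The more abundant chi-miR-432-5p was not called. For 24 months against 1 month the count of members past the test went from 1 to 5 of 89, against 26.4% of entries. chi-miR-411a-5p and chi-miR-544-5p were higher, and chi-miR-382-3p at -1.39 (SE 0.32, adjusted p = 0.0132), chi-miR-412-5p and chi-miR-433 were lower. These fits have 2 goats at 1 month. The pattern of the leading miRNA of each gene is shown by library in gene order.

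**Figure D4:**
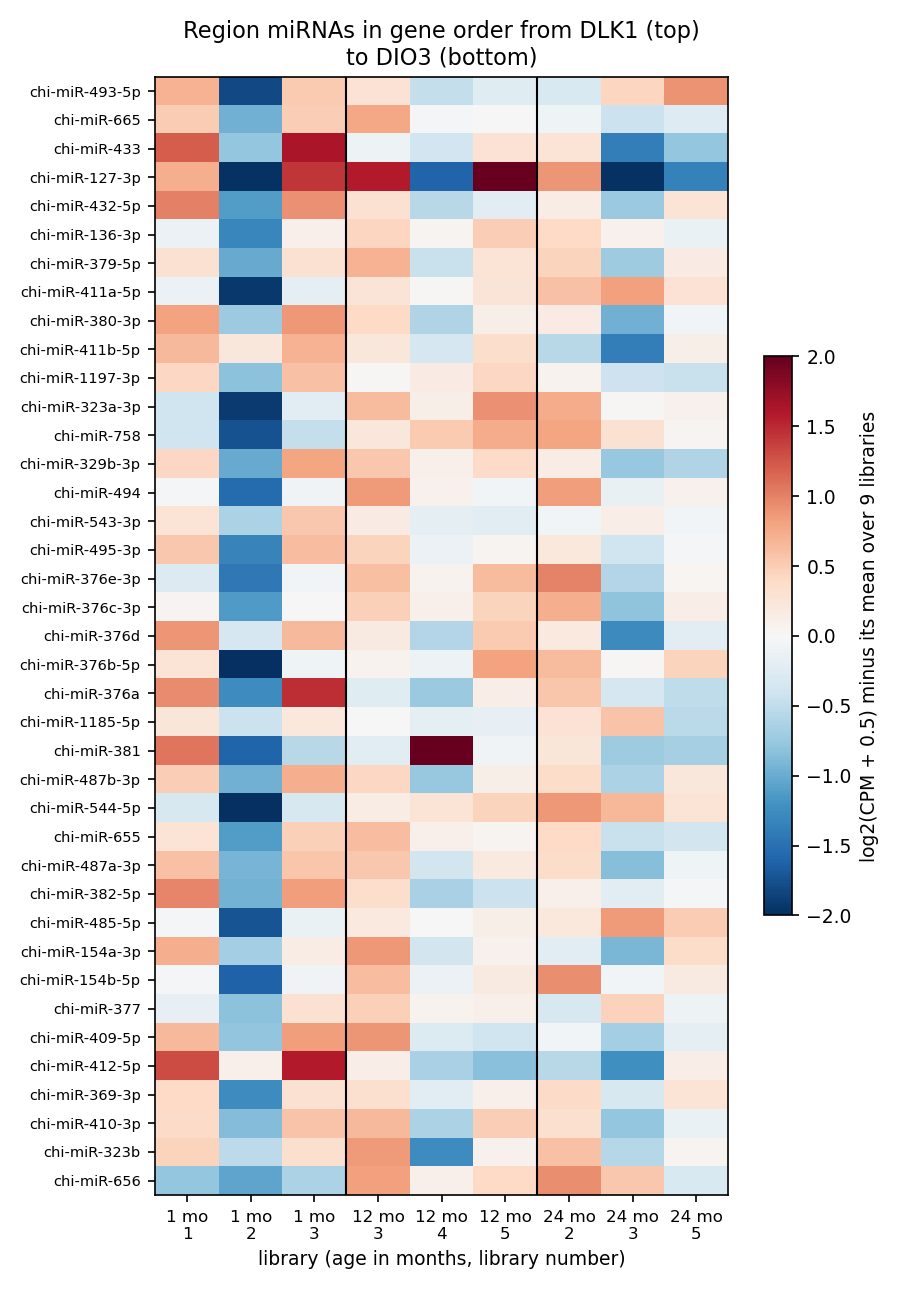
Leading tested miRNA of each gene in order from DLK1 (top) to DIO3 (bottom) by library; colour is log2(CPM + 0.5) minus the miRNA's mean over the 9 libraries, clipped at 2 in each direction. The column of 1-month library 2 is blue in all rows but those of chi-miR-411b-5p and chi-miR-412-5p. Within each age chi-miR-127-3p varies between goats, and chi-miR-381 stands out in 12-month library 4.

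chi-miR-381 followed 1 goat. Its level was 76.8, 11.6 and 24.6 CPM at 1 month, 31.2, 206.4 and 34.6 CPM at 12 months and 42.9, 21.8 and 22.7 CPM at 24 months, and 12-month library 4 was the high value. Muscle marker miRNAs (10 of 17 entries tested) were also highest in that library, at 0.247% of its counts against 0.0155% to 0.0611% in the other 8, and their part in the value was not tested. The entry miR-381-y, of another species' name, differs from chi-miR-381 by A4G and A7G (chi-miR-381 first, positions from the 5′ end), both in the seed.
chi-miR-381: tATACAAGggcaagctctctgt
miR-381-y: tATGCAGGggcaagctctctgt
It amounted to 6.40%, 10.96% and 10.92% of chi-miR-381 at 1 month, 13.6%, 2.33% and 8.83% at 12 months, then 10.1%, 16.2% and 16.8% at 24 months. In CPM it ran from 1.27 to 4.91, and 12-month library 4 stood at 4.80 CPM, next to 4.91 in 1-month library 1. It was singled out after its values were seen.

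Between 24 and 12 months the members with the smallest p, none of which passed (adjusted p = 0.998 for each in edgeR), were miR-665-x, chi-miR-381 at -1.64 (SE 0.84), miR-409-y at -0.78 (SE 0.48), chi-miR-127-3p at -1.74 (SE 1.09) and miR-487-y at 1.12 (SE 0.71) on the log2 scale. Both chi-miR-381 and chi-miR-127-3p overlapped between these ages. miR-487-y was scarce, between 0.477 and 4.26 CPM, with its highest value in 24-month library 5.

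Arms of a hairpin come from 1 precursor, and their ratio does not depend on library scaling. In 10 hairpins both arms had at least 10 counts in every library. Of 30 exact two-sided permutation tests over these hairpins and the 3 age comparisons, 5 reached 0.1, the smallest p that 3 goats against 3 can give, and the smallest Benjamini-Hochberg adjusted p was 0.545. The 5 were miR-1185 for 12 months against both other ages, miR-493 for 12 months against 1 month, and miR-369 and miR-411a for 24 months against 1 month. In miR-411a, where the 5p arm led, the log2 ratio of 5p to 3p was 3.24, 2.68 and 3.44 at 1 month, 2.80, 3.75 and 3.32 at 12 months, then 3.65, 5.02 and 3.88 at 24 months. 24-month library 3 was again the highest. In miR-136 the 3p arm led in every library, with log2 ratios between -2.24 and -1.80, and in miR-299 it led by more, between -4.49 and -2.62.

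miR-485 fell outside the rule for hairpins because its 3p arm was too scarce, and was added after its values were seen. Its log2 ratio of 5p to 3p was 0.97, 3.37 and -0.32 at 1 month, 0.85, 1.27 and 0.76 at 12 months, then 1.03, 3.54 and 3.55 at 24 months. 1-month library 2 and 24-month libraries 3 and 5 were high, and all 3 also had a positive ratio for miR-127. The other positive library for miR-127, 12-month library 4 at 2.02, stood at 1.27 for miR-485. chi-miR-485-3p stood at 0.239, 1.48 and 1.15 CPM in those 3 libraries and between 3.84 and 10.5 CPM in the other 6.

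**Figure D5:**
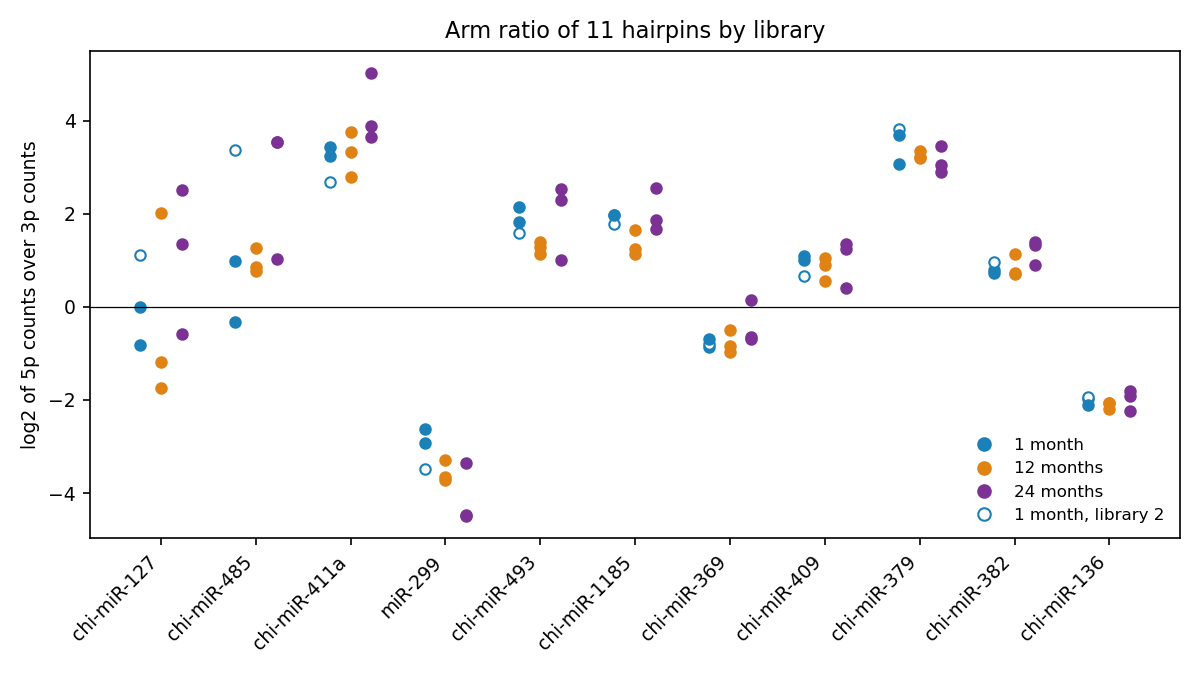
Log2 ratio of 5p to 3p counts of 11 hairpins by library, coloured by age, with 1-month library 2 drawn open; the 0 line marks equal arms. miR-127 and miR-485 spread over 4.26 and 3.87 log2 units, while miR-136 spans 0.43.

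By their printed sequences, several entries are longer forms of a goat-named miRNA. How reads that match several entries were counted is not given. The ratios below therefore compare entries and are not shown to measure 3′ ends. Of 81 such pairs in the table with at least 5 counts in every library, 9 lay in the region. The 81 pairs are not all separate, since some entries, such as chi-miR-107-3p, stand in more than 1 pair. In 1 of the 9 the ages did not overlap between 12 months and 1 month (17.3% of the 81 pairs) and between 24 months and 1 month (23.5%). This was miR-329-y, which is chi-miR-329b-3p with 2 more bases.
chi-miR-329b-3p: aACACACCtggttaacctct
miR-329-y: aACACACCtggttaacctctcc
It amounted to 11.6%, 12.6% and 10.1% of chi-miR-329b-3p at 1 month, 34.6%, 31.3% and 30.2% at 12 months, then 49.0%, 30.0% and 30.1% at 24 months. All 3 young goats lay low, library 2 included. The exact two-sided permutation p was 0.1 against 1 month at both later ages, the smallest possible, and 1 after adjustment over 27 tests. The level of miR-329-y itself was 4.83, 1.91 and 5.44 CPM at 1 month, 15.7, 10.4 and 12.2 CPM at 12 months and 16.9, 5.46 and 6.10 CPM at 24 months. It did not pass, at a log2 fold change of 1.65 (SE 0.56, adjusted p = 0.0608) for 12 months against 1 month, or 1.29 (adjusted p = 0.0966) without library 2. This comparison of forms was chosen after values were seen.

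The miR-376 hairpins stand side by side in the cluster and differ by few bases. Over their shared length, chi-miR-376d differs from chi-miR-376e-3p by the single substitution A2T, inside the seed (chi-miR-376e-3p first, positions from the 5′ end). Likewise, chi-miR-376e-3p differs from chi-miR-376c-3p by T14A and G20A, outside the seed (chi-miR-376c-3p first). In length, chi-miR-376e-3p has 22 bases, while chi-miR-376c-3p and chi-miR-376d have 21.
chi-miR-376c-3p: aACATAGAggaaattccacgt
chi-miR-376e-3p: aACATAGAggaaaatccacatt
chi-miR-376d: aTCATAGAggaaaatccacat
chi-miR-376c-3p and chi-miR-376e-3p had like levels, at 21.7 ± 8.74 and 17.6 ± 7.79 CPM at 1 month, 33.5 ± 4.68 and 33.8 ± 6.84 CPM at 12 months and 28.9 ± 14.4 and 30.2 ± 17.0 CPM at 24 months (SD, n = 3 each). chi-miR-376d stood at 2.36 ± 1.12, 1.69 ± 0.791 and 1.15 ± 0.752 CPM. None of the 3 passed any comparison, and reads of such close relatives may be counted under a neighbour's name. The 5p entries of miR-376b, miR-376c and miR-376e share 1 sequence and hold the same counts, so they are 1 measurement under 3 names.

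Genes that neighbour the members but carry other numbers, taken from the annotation, gave a second look at the same stretch. Of 11 entries for miR-3955, miR-3958 and miR-3959, 6 were tested and 0 passed in any comparison. chi-miR-3958-3p gave 334, 109 and 350.2 CPM at 1 month, 510.5, 291 and 279 CPM at 12 months and 367, 265 and 278 CPM at 24 months. It too was lowest in 1-month library 2. In a list of imprinted and growth-linked miRNAs from elsewhere in the genome, 24 of 29 entries were tested: 0 rose and 3 fell between 1 and 12 months, all of them miR-296 entries, and 0 rose and 4 fell between 1 and 24 months. These counts lie near the 13.2% and 17.5% of all entries called lower. chi-miR-296-3p went from 229, 496 and 193 CPM at 1 month to between 99.6 and 112 CPM at 12 months (log2 fold change -1.51, adjusted p = 0.0256 in edgeR), and there 1-month library 2 was the highest.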

How the data were processed

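Small RNA from the submandibular gland of 9 goats was counted per mature miRNA entry. The deposited table holds raw counts with each entry's sequence, per the file headers; Bowtie and FastQC are named in the submitters' processing notes, while for the build, the miRNA database release and the rule for reads that match several entries, nothing is stated (not given in the sources used here). Under different names, 5 members share 2 sequences. The miR-376 5p entries among them hold equal counts. By contrast, miR-379-y and miR-411-y share a sequence but hold different counts, such as 0 and 12 in 1-month library 1. The printed sequence alone thus does not settle which reads an entry holds, and comparisons of entries by sequence carry this limit. The table holds no value of exactly 1 and 1493 values of 2, so single counts may have been removed. Library totals ran from 8288492 to 13277448 counts, and intervals on shares cover counting error only.

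One model over all 9 libraries was run in edgeR 4.0.16 (R 4.3.3): filterByExpr (minimum count 10, minimum total 15; 937 of 2189 entries), TMM scaling, robust quasi-likelihood F tests with 6 residual degrees of freedom and Benjamini-Hochberg adjustment over all entries tested, at 0.05. CPM values are counts over the TMM-scaled library total. Of the members, 84 were tested and 62 were not, and the 84 hold at least 99.58% of the member counts of each library. Arm ratios were compared by exact two-sided permutation of the libraries. The script was tested on simulated data. DESeq2 1.42.0, limma 3.58.1 (voom), other scalings and filters, a replicate block and leaving out each library were tried as alternatives.

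The members, the lists and the tests were chosen with earlier results of these data known. Named with values were the 12 most abundant members, those past the threshold or otherwise the 5 with the smallest p in each comparison, the goat-named RTL1-antisense members, the leading pair under each shared seed, and hairpins with at least 10 counts on both arms in every library. The members called without 1-month library 2 and other names outside this rule were chosen on seen values. Gene order comes from RefSeq ARS1.2, where 33 of the 46 numbers have a gene in the region; the position groups of the others, miR-370, miR-431 and miR-337 among them, follow the order known in other mammals.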

Additional observations from a re-analysis of the deposited data

How the results depend on the processing

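For 12 months against 1 month, where 0 of 84 members passed, 2 did with upper-quartile scaling (20.9% of entries called), 4 with DESeq2 (30.4%), 3 with limma voom (24.3%), 1 with no filter on low counts, where all members were tested (12%), 1 of 80 with identical sequences kept once (22.9%) and 3 of 53 with goat-named entries only (27.7%). For 24 months against 1 month, where 1 of 84 passed, 2 did with DESeq2 size factors in edgeR (28.9% of entries), 3 with upper-quartile scaling (30.4%), 6 with DESeq2 (38.2%), 2 with no filter (13.2%) and 7 of 53 with goat-named entries only (34.9%). It was 0 with identical sequences kept once (26.3%), with only the 2 ages fitted (20.5%) and with the replicate block (7.58%). The 1 member called on library size alone and the 2 with no filter were lower, not higher. For any difference between ages, where 0 passed, 1 did on library size alone (22.1%), 2 with DESeq2 (31.9%), 2 with no filter (13.8%), 1 of 80 with identical sequences kept once (23.5%) and 3 of 53 with goat-named entries only (30.4%). Leaving out each library in turn gave 0 to 4, 0 to 5 and 0 to 4 members in these 3 tests, and the highest value came without 1-month library 2 in each. Between 24 and 12 months the count was 0 under every alternative run. The causes of these shifts were not tested.

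Over all entries, the calls for 12 months against 1 month went from 180 of 937 (19.2%) to 285 of 937 with DESeq2, 99 of 358 with goat-named entries only and 83 of 1000 without 12-month library 4. For 24 months against 1 month they went from 246 of 937 (26.3%) to 125 of 358 with goat-named entries only, a larger share, and to 158 of 996, 116 of 1008 and 161 of 1012 without 24-month libraries 2, 3 and 5. For any difference they went from 192 of 937 (20.5%) to 299 of 937 with DESeq2, 303 of 2189 with no filter, a smaller share, and 109 of 358 with goat-named entries only, a larger one. Among 22 results for single members under 434 alternatives, 378 kept direction and side of the threshold, 15 lost the call, 41 gained one and 0 reversed. Without 1-month library 2 the region's mean share at 1 month was 0.550% in place of 0.416%. The members' medians changed sign, from -0.21 to 0.59 for 12 against 1 month, -0.26 to 0.20 for 24 against 12 months and -0.29 to 0.29 for 24 months against 1 month. Relative to the median of all entries, which moved by over 0.1 with scaling (to -0.20 on library size alone and 0.12 with upper quartiles for 12 against 1 month), the members lay 0.16 to 0.63 higher for 12 against 1 month and 0.10 to 0.51 higher for 24 months against 1 month, except without 1-month library 2 (-0.15 and -0.22).

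The replicate block used the number in the titles as a term. It left 0 members called, and over all entries 4, 0, 71 and 13 called for 12 against 1, 24 against 12, 24 against 1 and any difference. The term uses up residual degrees of freedom. Title numbers 1 and 4 occur once each, so 1-month library 1 and 12-month library 4 add nothing to the age comparisons of that fit. The part of this loss in the fall of calls was not tested. The ages are different goats, and the 5 pairs that share a number had correlations of their deviations from the age means between -0.20 and 0.17, so the numbers do not pair the libraries. The count filter left out 62 members, for which these libraries show no comparison.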
